A study of Homo sapiens with 54 samples.

Results

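HL60 and K562 are the 2 myeloid leukaemia lines of a calcitriol time course in 9 established human cell lines, and their gene levels were set against each other across all genes. The comparison used the 6 HL60 arrays and the 6 K562 arrays, 12 of the 54 arrays of the series, and 19460 probe sets that carry exactly 1 gene symbol, for 18417 genes. The arrays were chosen by the cell line and time in their labels and not by any measured value. HL60 is a promyelocytic leukaemia line, and K562 is a chronic myeloid leukaemia line that carries the BCR-ABL1 fusion and has erythroid features. Both lines had 2 arrays without agent at 0 h, 2 with calcitriol at 8 h and 2 with calcitriol at 36 h, so time and calcitriol go together in both lines. Calcitriol is the hormonal form of vitamin D, and the labels state no dose. Each group is 1 line, so every difference belongs to these 2 lines and not to their diseases or cell types. The titles mark the 2 arrays of a line and time BR1 and BR2 without spelling out BR, and no label names separate cultures, so the spread behind each p-value is that of these arrays and may be technical. In RNA from a whole culture, fewer cells with a transcript and less of it in each cell cannot be told apart.

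Promyelocytes fill their azurophil granules with myeloperoxidase and serine proteases and use transcription factors such as PU.1 and the C/EBP family. Erythroid cells use GATA1, TAL1 and KLF1, make globin and haem, and carry blood group proteins on a spectrin skeleton. GATA1 and PU.1 are known to oppose each other in blood progenitors.

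Values are deposited log2 intensities after RMA, a difference is HL60 minus K562 on the log2 scale, given ± its standard error, and 1 unit is a 2-fold difference. The array medians were 5.15 to 5.24 in HL60 and 5.06 to 5.31 in K562, and values well below them cannot be told from background here, so folds against such values are not exact. Over all probe sets, arrays of the same line correlated at 0.974 to 0.989 in HL60 and 0.963 to 0.991 in K562, while arrays of different lines correlated at 0.908 to 0.946. The spread between the 2 arrays of a group was 0.215 to 0.298 in HL60, and in K562 it was 0.218 at 8 h, 0.318 at 0 h and 0.405 at 36 h (root mean square SD over probe sets). K562 replicate 1 at 36 h stood apart from the other K562 arrays, and counts that move by 1.5 times or more without it are given with both values. Without it, 6 growth factor receptors, 6 class I and loading genes and 3 other erythroid genes were called higher in HL60, and 7 cancer-testis antigens lower, 1 more in each list than with all arrays, and 1 of the aldehyde, glutathione and drug-handling enzymes was called higher in place of 0.

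MPO, myeloperoxidase of the azurophil granule, read 11.30, 11.68 and 11.72 in HL60 (lowest, median and highest of 6 arrays) and 4.80, 4.95 and 5.14 in K562. All HL60 arrays lay far above all K562 arrays, and the difference was 6.65 ± 0.10, or 101-fold (adjusted p = 9.06e-17, limma's test of a difference beyond 2-fold). GATA1, the zinc-finger factor of erythroid cells, read 5.29, 5.51 and 5.73 in HL60 and 7.53, 7.59 and 8.08 in K562, with no overlap and a difference of -2.15 ± 0.12 (adjusted p = 9.02e-07). MPO was thus higher in the promyelocytic line and GATA1 in the line with erythroid features. In the lists of B cell, T and natural killer cell, fibroblast and hepatocyte markers, 0 of 7, 0 of 8, 0 of 8 and 0 of 8 measured genes differed beyond 2-fold. Of these genes 2 had a mean above 6 in a line, both collagen genes: COL1A1 averaged 6.0 in HL60 and 6.28 in K562, and COL1A2 averaged 5.30 in HL60 and 6.45 in K562.

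**Figure D1:**
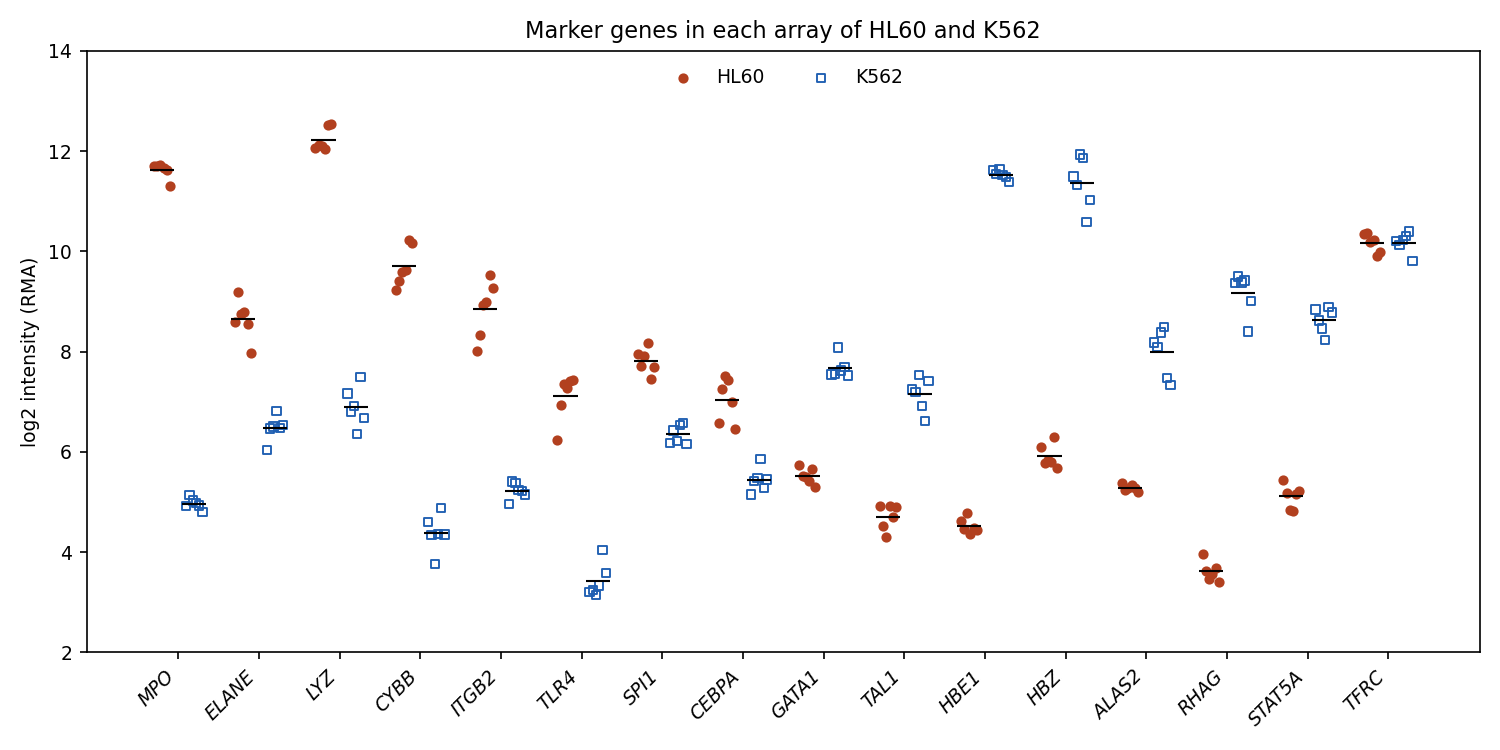
Log2 intensity (vertical axis) of 16 genes in each array, HL60 (filled circles, left of each pair) and K562 (open squares, right), 6 arrays a line, with a bar at the mean of each line. The genes were picked by hand and do not stand for all members of their classes. Those shown of granules, phagocytes and their factors are higher in HL60. Those shown of globin, haem and the erythroid membrane are higher in K562, and TFRC, the transferrin receptor, differs by -0.01.

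Across the table, 3213 of 19460 probe sets (16.5%) were higher in HL60 and 4492 (23.1%) were lower by any size. The median difference over all probe sets was -0.106. The call used from here on asks for more than a 2-fold difference. It was passed by 578 probe sets higher in HL60 (2.97%) and 456 lower in HL60 (2.34%). With 1 probe set a gene, that of the highest mean, these were 540 genes higher (2.93%) and 439 genes lower (2.38%), and the lists below are to be read against these shares. In the line where the gene was lower, its mean was below 5 for 332 of the 540 higher genes and 262 of the 439 lower genes, so most of these differences set a measured level against one near background. Over all genes the 6 HL60 arrays lay above the 6 K562 arrays for 9.66% of genes and below them for 15.2%.

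The untreated arrays alone, 2 against 2, gave 372 probe sets beyond 2-fold higher in HL60 (1.91%) and 335 lower (1.72%). Of these 707 calls, 692 were also made in the same direction by the fit of all 12 arrays and 0 in the opposite one. The 2 fits share the 0 h arrays. All 578 higher and all 456 lower probe sets of the 12-array fit kept their sign at 0 h, at 8 h and at 36 h. The difference in that fit is the average of those at these times, so this agreement is largely built in and is no separate check. Of the 169 called genes named in this account, 35 did not pass with the 0 h arrays alone. The lists below pool all times, and at 0 h alone several counts were smaller. Higher in HL60 were 4 monocyte and macrophage genes in place of 7, and 4 adaptors and phosphatases in place of 7. Surface receptors gave 8 in place of 10, and class I genes 3 in place of 5. Lower in HL60 were 2 globin genes in place of 4 and 3 drug-handling enzymes in place of 6. Growth factor receptors gave 6 higher in place of 5. The 8 h arrays alone, also 2 against 2, gave 685 probe sets higher and 348 lower, so fewer arrays did not always give fewer calls. Why the counts at 0 h were smaller was not tested.

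**Figure D2:**
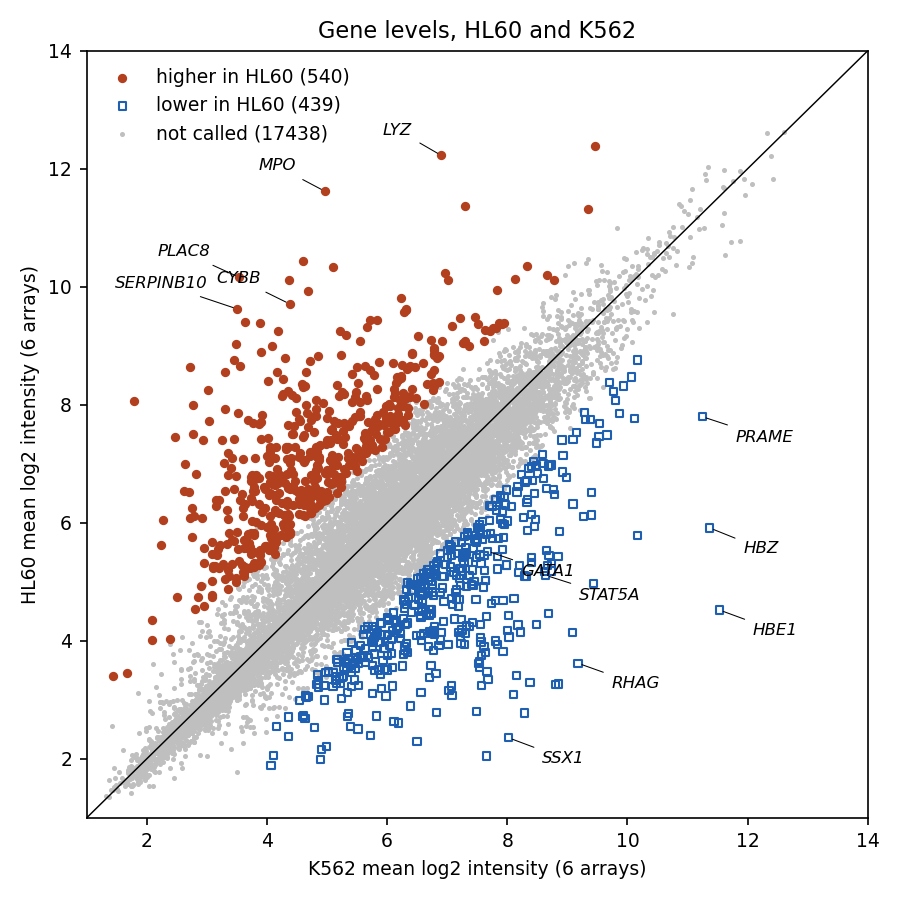
Mean log2 intensity of each of 18417 genes in HL60 (vertical axis, 6 arrays) against K562 (horizontal axis, 6 arrays), 1 probe set a gene. Filled circles above the diagonal are the 540 genes beyond 2-fold higher in HL60, open squares below it the 439 genes beyond 2-fold lower, and small grey dots the rest, with named genes at the far ends of both clouds.

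Granule genes were among the furthest apart. Of 26 measured granule and granulocyte genes, 14 were higher in HL60 and 0 lower, with a median difference of 2.12 against -0.109 over all genes. LYZ, lysozyme, read 12.04, 12.11 and 12.54 in HL60 and 6.35, 6.86 and 7.50 in K562. BPI, the bactericidal/permeability-increasing protein, read 7.99, 8.94 and 9.41 in HL60 and 3.13, 3.51 and 3.63 in K562. SERPINB10, a serine protease inhibitor of bone marrow cells, read 9.49, 9.57 and 9.98 in HL60 and 2.98, 3.45 and 4.25 in K562. In all 3 the lines did not overlap, and the differences were 5.33 ± 0.14, 5.30 ± 0.17 and 6.12 ± 0.17 (adjusted p = 2.77e-13, 3.32e-12 and 2.19e-13). The eosinophil granule genes RNASE2, the eosinophil-derived neurotoxin, and PRG2, the major basic protein, differed by 5.25 ± 0.14 and 5.23 ± 0.14. EPX, the peroxidase of the same granule, averaged 5.77 in HL60 and 4.69 in K562 and did not pass.

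Granule genes of later neutrophil stages divided. LTF, lactoferrin, averaged 5.98 in HL60 and 5.10 in K562, LCN2, lipocalin, 5.35 in HL60 and 5.40 in K562, and MMP9, gelatinase B, 4.56 in HL60 and 4.62 in K562, and none of these 3 passed. CEACAM8, a surface protein stored in specific granules, passed, with 6.49, 7.05 and 7.72 in HL60 and 4.10, 4.67 and 4.91 in K562 (2.46 ± 0.17). MMP8, neutrophil collagenase, also passed, with 2.98, 5.11 and 8.48 in HL60 and 1.88, 2.32 and 2.37 in K562. Its HL60 arrays spread widely, and their values by time are given below.

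The azurophil proteases AZU1, PRTN3 and ELANE stand in this order next to each other on chromosome 19 in the GRCh38.p14 annotation. AZU1, azurocidin, averaged 6.75 in HL60 and 5.72 in K562, a difference of 1.03 ± 0.17, and did not pass the call. Its difference was 1.60 at 0 h, 0.93 at 8 h and 0.56 at 36 h. PRTN3, proteinase 3, read 8.27, 8.72 and 8.94 in HL60 and 5.93, 6.30 and 6.58 in K562, a difference of 2.44 ± 0.13. ELANE, neutrophil elastase, read 7.98, 8.67 and 9.18 in HL60 and 6.04, 6.49 and 6.82 in K562, a difference of 2.17 ± 0.16. CTSG, cathepsin G, a protease of the same granules encoded on chromosome 14, read 7.82, 8.38 and 8.54 in HL60 and 4.38, 4.60 and 4.77 in K562, a difference of 3.69 ± 0.13. The next measured gene on the side of AZU1, PLPPR3, a phospholipid phosphatase-related protein, averaged 6.36 in HL60 and 6.35 in K562. PRTN3 and ELANE thus passed the call, AZU1 was higher in HL60 without passing it, and PLPPR3 differed by 0.01. PRSS57, another serine protease of the granule list, averaged 6.40 in HL60 and 6.42 in K562 and did not pass.

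Surface receptors of myeloid cells divided. Of 23 measured, 10 were higher in HL60, 1 was lower and 12 did not pass. ANPEP, the aminopeptidase CD13, read 8.69, 9.33 and 9.78 in HL60 and 4.91, 5.24 and 5.47 in K562. CLEC5A, a C-type lectin of myeloid cells, read 8.14, 8.70 and 9.01 in HL60 and 3.42, 3.52 and 3.76 in K562. ITGB2, the beta chain of the leukocyte integrins, differed by 3.61 ± 0.16, and its partner chains ITGAL and ITGAM by 3.19 ± 0.14 and 2.05 ± 0.18. With the 0 h arrays alone ITGAM differed by 1.28 and CD14, also among the 10 higher, by 0.94, and neither passed. ITGAX, another partner chain, averaged 5.17 in HL60 and 4.66 in K562 and did not pass. The gene lower in HL60 was FCGR2A, a receptor for IgG, which read 3.34, 3.60 and 3.76 in HL60 and 5.40, 6.05 and 6.78 in K562, with a difference of -2.53 ± 0.17. Here the K562 arrays all lay above the HL60 arrays.

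Among monocyte and macrophage genes 7 of 19 were higher in HL60 and 0 lower, and with the 0 h arrays alone 4 were higher. S100A8, 1 chain of the calprotectin dimer, read 8.54, 8.93 and 9.62 in HL60 and 3.10, 3.59 and 3.77 in K562, a difference of 5.55 ± 0.17, and S100A9, the other chain, differed by 1.65 ± 0.15. MNDA, a nuclear antigen of myeloid cells, differed by 4.47 ± 0.12, and FCER1G and AIF1 by 2.98 ± 0.14 and 2.44 ± 0.18. Genes of mature macrophages stayed low in both lines, with CD163 at 3.64 in HL60 and 3.75 in K562, MRC1 at 3.05 in HL60 and 3.19 in K562 and CSF1R at 4.95 in HL60 and 4.89 in K562. PSAP and CD68, lysosomal genes that many cells share, did not pass, at 9.31 in HL60 and 9.56 in K562 for PSAP and 7.84 in HL60 and 8.07 in K562 for CD68.

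The phagocyte oxidase makes superoxide from a membrane pair, CYBB and CYBA, and cytosolic subunits. CYBB read 9.22, 9.61 and 10.22 in HL60 and 3.76, 4.36 and 4.88 in K562, a difference of 5.33 ± 0.15, and the cytosolic NCF4 read 8.04, 8.66 and 9.02 in HL60 and 4.52, 4.61 and 4.92 in K562, a difference of 3.90 ± 0.15. CYBA, the partner of CYBB in the membrane, averaged 6.41 in HL60 and 7.08 in K562 and did not pass. RAC2, the small GTPase of the complex, differed by 1.48 ± 0.14, so 3 of 4 measured members were higher in HL60. RAC2 lost its call without any 1 of 8 arrays, and without 1 array at a time this count was 2 to 3.

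Receptors of innate sensing followed. Of 15 measured genes 6 were higher in HL60, among them TLR4, the receptor for bacterial lipopolysaccharide, with 6.23, 7.32 and 7.43 in HL60 and 3.14, 3.29 and 4.04 in K562. TLR2 differed by 2.46 ± 0.16 and TLR1, whose call was lost without any 1 of 5 arrays, by 1.52 ± 0.14, whereas TLR7 and TLR9, which sense nucleic acids in endosomes, averaged 4.05 in HL60 and 4.25 in K562 for TLR7 and 6.10 in HL60 and 6.16 in K562 for TLR9 and did not pass. IRAK3, a kinase-like protein that dampens this signalling, had the largest difference of the list, with 7.91, 8.25 and 8.63 in HL60 and 2.69, 2.94 and 3.53 in K562 (5.23 ± 0.13). MYD88, the adaptor most of these receptors use, differed by -0.38 and did not pass.

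**Figure D3:**
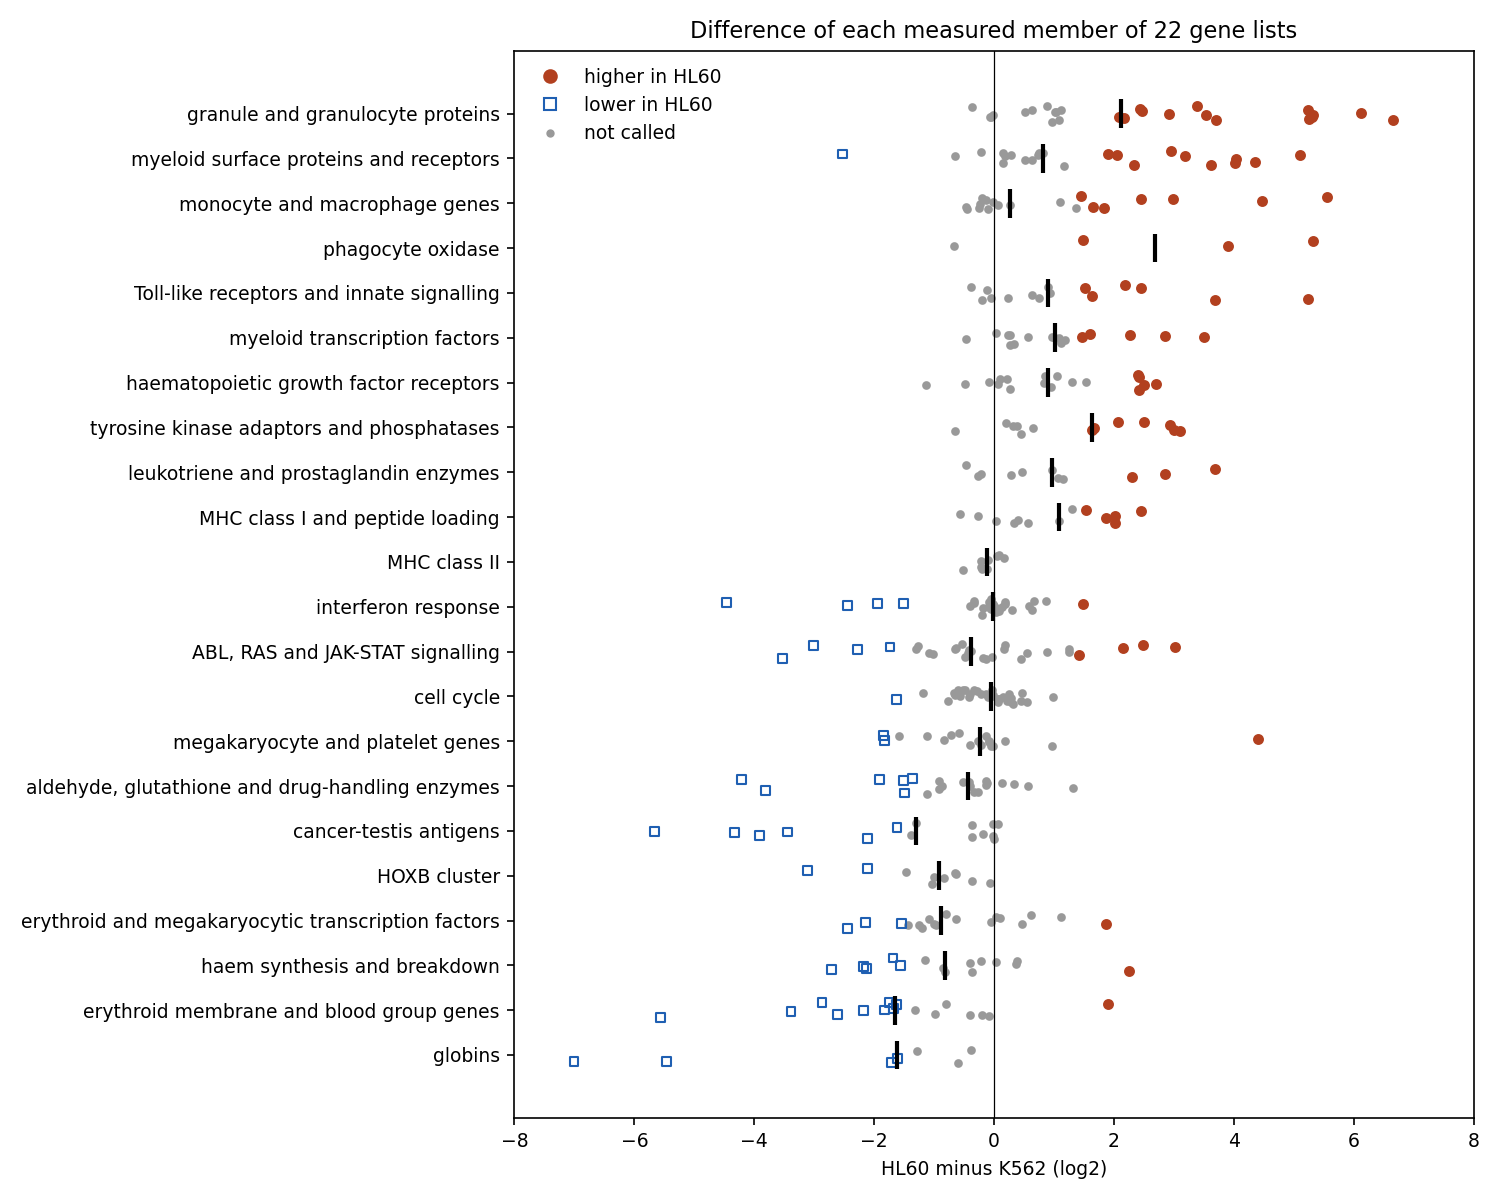
Difference HL60 minus K562 (log2, horizontal axis) of every measured member of 22 gene lists (rows), 1 point a gene. Filled circles passed the 2-fold call as higher in HL60, open squares passed it as lower, grey dots did not pass, and the short black bar is the list's median. Myeloid lists reach far to the right, globin and erythroid membrane lists to the left, and the cell cycle list stays near 0.

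Of 17 measured myeloid factors 5 were higher in HL60 and 0 lower. FLI1, an ETS factor of megakaryocytes and other blood cells, read 7.23, 7.43 and 7.53 in HL60 and 3.40, 3.91 and 4.38 in K562, with a difference of 3.50 ± 0.12. IRF8, which guides monocyte formation, read 7.39, 7.47 and 7.60 in HL60 and 4.06, 4.75 and 4.79 in K562, with a difference of 2.86 ± 0.12. GFI1, a repressor of granulocyte precursors, differed by 2.27 ± 0.12. SPI1, which encodes PU.1, read 7.46, 7.82 and 8.17 in HL60 and 6.16, 6.32 and 6.58 in K562, and CEBPA, the main C/EBP factor of granulocyte precursors, read 6.46, 7.13 and 7.51 in HL60 and 5.15, 5.43 and 5.85 in K562. The arrays of SPI1 and of CEBPA did not overlap between lines, and the differences were 1.47 ± 0.12 and 1.60 ± 0.14 (adjusted p = 0.0146 and 0.00673). The call of SPI1 was lost without HL60 replicate 2 or K562 replicate 1 at 8 h, with differences of 1.42 and 1.41. With the 0 h arrays alone SPI1 differed by 1.54 and CEBPA by 1.63, and neither passed. With the 36 h arrays alone the differences were 1.21 for SPI1 and 1.36 for CEBPA, and again neither passed. CEBPB and CEBPD averaged 6.99 in HL60 and 6.73 in K562 for CEBPB and 6.42 in HL60 and 6.18 in K562 for CEBPD and did not pass.

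Of the erythroid and megakaryocytic factors 3 of 18 were lower in HL60 and 1 was higher. TAL1, the helix-loop-helix partner of GATA1, read 4.30, 4.80 and 4.92 in HL60 and 6.62, 7.22 and 7.54 in K562, a difference of -2.45 ± 0.16. MEIS1, a HOX cofactor, differed by -1.55 ± 0.15, a call lost without any 1 of 5 arrays, with differences of -1.54 to -1.49. NFE2, KLF1, GFI1B and GATA2 were also lower in HL60 by value, with differences of -1.44 ± 0.14, -1.26 ± 0.10, -1.20 ± 0.12 and -1.09 ± 0.12, and did not pass the 2-fold call. The factor higher in HL60 was BCL11A, a repressor of fetal globin, with 5.92, 6.34 and 7.11 in HL60 and 4.32, 4.52 and 4.83 in K562 (1.87 ± 0.17). MYB, a factor of blood progenitors placed on both lists, averaged 9.83 in HL60 and 8.72 in K562 and did not pass, and ZBTB7A, another globin repressor, averaged 6.90 in HL60 and 6.87 in K562.

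Promoter letters that these factors are known to bind were counted in RefSeq promoters (GRCh38.p14, 250 bases before to 50 after the first listed start, both strands), which 14237 of 18417 genes had. The PU.1 letters GAGGAA stood in 170 of 427 promoters of genes higher in HL60 (39.8%), 88 of 345 of genes lower in HL60 (25.5%) and 27.8% of all. The GATA letters AGATAA stood in 9.37% of promoters of higher genes, 8.99% of lower genes and 7.59% of all, so the 2 gene groups hardly differed in them. For the C/EBP letters TTGCNNAA the shares were 8.9%, 9.86% and 8.35% in the same order, for the RUNX letters TGTGGT 13.6%, 8.99% and 10.5%, for the KLF letters CCACCC 36.1%, 42.6% and 37.1%, and for TATAAA 9.37%, 10.7% and 9%. GAGGAA had the widest gap of the 6, and with genes called at any size it narrowed to 31.2% and 25.5%. These shares are descriptions with no test, the letter strings can overlap each other, and a match is not a bound site.

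The 250 bases before the start follow for 3 genes higher in HL60 that hold GAGGAA, marked in capitals on either strand, picked for these letters so that a reader can see where they lie.
CYBB (chrX:37779809-37780058, plus strand): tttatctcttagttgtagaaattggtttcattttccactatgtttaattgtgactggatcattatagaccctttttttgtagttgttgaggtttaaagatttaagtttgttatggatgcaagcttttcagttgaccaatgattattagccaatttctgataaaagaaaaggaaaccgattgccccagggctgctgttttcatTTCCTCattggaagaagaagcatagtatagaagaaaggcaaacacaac
CTSG (chr14:24576251-24576500, minus strand): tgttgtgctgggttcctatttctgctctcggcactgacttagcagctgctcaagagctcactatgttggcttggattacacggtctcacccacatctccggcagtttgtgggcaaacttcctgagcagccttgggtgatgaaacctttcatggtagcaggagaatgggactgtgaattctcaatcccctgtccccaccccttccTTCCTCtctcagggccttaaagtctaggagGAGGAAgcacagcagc
PRTN3 (chr19:840749-840998, plus strand): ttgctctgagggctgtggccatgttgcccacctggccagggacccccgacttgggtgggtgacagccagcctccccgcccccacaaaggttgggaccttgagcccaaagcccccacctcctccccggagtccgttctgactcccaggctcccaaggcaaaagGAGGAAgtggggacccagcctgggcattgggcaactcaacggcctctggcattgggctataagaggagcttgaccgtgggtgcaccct
Counted to the first base of the match, the capitals begin 48 bases before the start in CYBB, 46 and 16 bases before it in CTSG and 88 bases before it in PRTN3. All 3 genes were among those described above, with differences of 5.33, 3.69 and 2.44.

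For 3 genes lower in HL60 the same stretch is given with AGATAA in capitals on either strand, again picked for these letters.
TAL1 (chr1:47232336-47232585, minus strand): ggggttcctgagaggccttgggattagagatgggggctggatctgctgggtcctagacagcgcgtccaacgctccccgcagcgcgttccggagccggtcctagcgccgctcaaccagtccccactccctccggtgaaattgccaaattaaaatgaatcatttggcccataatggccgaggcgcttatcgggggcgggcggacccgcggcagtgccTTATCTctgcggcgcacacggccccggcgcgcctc
ALAS2 (chrX:55030978-55031227, minus strand): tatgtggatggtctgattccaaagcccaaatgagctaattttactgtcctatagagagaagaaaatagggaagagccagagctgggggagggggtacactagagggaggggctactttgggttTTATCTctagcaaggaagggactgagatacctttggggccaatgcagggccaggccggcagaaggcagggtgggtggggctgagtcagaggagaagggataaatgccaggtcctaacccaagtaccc
KEL (chr7:142962364-142962613, minus strand): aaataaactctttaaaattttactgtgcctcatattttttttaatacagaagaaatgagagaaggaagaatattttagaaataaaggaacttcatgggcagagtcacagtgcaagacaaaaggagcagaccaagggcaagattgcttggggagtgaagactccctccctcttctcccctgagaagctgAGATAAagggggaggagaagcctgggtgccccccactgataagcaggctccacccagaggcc
The capitals begin 35 bases before the start in TAL1, 127 in ALAS2 and 62 in KEL, and the differences of these genes were -2.45, -2.71 and -3.39.

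Globin genes gave the largest difference of the table. HBE1, the embryonic epsilon chain, read 4.36, 4.47 and 4.78 in HL60 and 11.39, 11.53 and 11.63 in K562, a difference of -7.01 ± 0.10 or 129-fold lower in HL60 (adjusted p = 9.06e-17). HBZ, the embryonic zeta chain, read 5.68, 5.81 and 6.30 in HL60 and 10.59, 11.41 and 11.93 in K562, a difference of -5.46 ± 0.18. HBD, the adult delta chain, read 3.94, 4.45 and 4.68 in HL60 and 5.49, 6.09 and 6.25 in K562 (-1.61 ± 0.13), while HBB, the adult beta chain, read 4.12, 4.52 and 4.56 in HL60 and 5.12, 5.71 and 6.22 in K562 and did not pass (-1.28 ± 0.15, adjusted p = 0.594). AHSP, the chaperone of the alpha chain, differed by -1.72 ± 0.21. In this list 4 of 7 measured genes were lower in HL60, and the other 3 lay on the same side of 0. Without K562 replicate 1 at 36 h the count was 3, since AHSP, at -1.69 there, lost its call. It was lost without any 1 of 6 arrays. The fetal gamma and adult alpha chains lie on probe sets that were not used here.

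In gene order along chromosome 11 the beta-globin genes are followed by olfactory receptor genes, and the difference did not stop at the globins. After HBB (-1.28), HBD (-1.61) and HBE1 (-7.01) came OR51B4 with -5.09 ± 0.13, OR51B2 with -1.31 ± 0.14, OR51B5 with -4.11 ± 0.14, OR51B6 with -0.10 ± 0.13 and OR51M1 with 0.06 ± 0.12. OR51B4 read 3.21, 3.28 and 3.39 in HL60 and 7.89, 8.40 and 8.97 in K562, and OR51B5 read 3.49, 3.83 and 4.16 in HL60 and 7.36, 7.92 and 8.54 in K562, with no overlap in either gene. On the other side of HBB, OR51V1 differed by -0.12 ± 0.12. The annotated gene OR51B5 spans several of its neighbours, so its probe set cannot be assigned to 1 transcript. On chromosome 16, where the probe sets of the alpha chains were not used, HBZ alone passed among the measured genes of its locus. Its measured neighbours NPRL3, HBM and HBQ1 differed by -0.57 ± 0.12, -0.39 ± 0.14 and -0.61 ± 0.16, and none passed. These neighbours were chosen for their place and after their values were seen.

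The first enzyme of haem synthesis separated by isoform. ALAS2, the erythroid form of the first and rate-setting enzyme, read 5.20, 5.28 and 5.38 in HL60 and 7.34, 8.14 and 8.49 in K562, a difference of -2.71 ± 0.13. ALAS1, the form of other tissues, read 9.02, 9.63 and 9.71 in HL60 and 7.02, 7.16 and 7.73 in K562, a difference of 2.25 ± 0.13 in the opposite direction. Later enzymes UROD and FECH, and the biliverdin reductases BLVRA and BLVRB, were lower in HL60, with differences of -2.13 ± 0.10, -1.69 ± 0.14, -1.57 ± 0.12 and -2.17 ± 0.10. In all, 5 of 15 measured genes were lower in HL60 and 1 higher. UROS, an enzyme between them, averaged 7.83 in HL60 and 7.81 in K562.

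Erythroid membrane and blood group genes were lower in HL60 for 9 of 16 measured, and higher for 1. RHAG, the carrier of the Rh complex, read 3.40, 3.60 and 3.97 in HL60 and 8.40, 9.37 and 9.50 in K562, a difference of -5.56 ± 0.14. KEL, the Kell protease, read 4.45, 4.69 and 4.99 in HL60 and 7.23, 8.20 and 8.66 in K562 (-3.39 ± 0.17), and XK, the protein it is bound to, differed by -2.18 ± 0.18. ANK1, the ankyrin that anchors the skeleton, and SPTB, the beta spectrin, differed by -2.61 ± 0.12 and -1.68 ± 0.12. RHD and RHCE, which are near-identical copies and share probes, differed by -2.87 ± 0.11 and -1.75 ± 0.13. SLC4A1, band 3 of the mature red cell, averaged 3.93 in HL60 and 4.91 in K562 and did not pass. CD44, an adhesion receptor that carries a blood group and is present on many cells, was the gene higher in HL60, by 1.90 ± 0.12.

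Of 18 other erythroid genes 5 were lower in HL60 and 2 higher. HEMGN, a nuclear protein of erythroid cells, read 2.46, 2.61 and 2.90 in HL60 and 5.18, 6.06 and 6.87 in K562. CA1, carbonic anhydrase 1, read 2.76, 2.89 and 3.08 in HL60 and 5.51, 6.55 and 6.80 in K562. TMOD1, which caps actin in the membrane skeleton, and TFR2, the second transferrin receptor, differed by -2.99 ± 0.11 and -2.02 ± 0.13. TFRC, the first transferrin receptor, averaged 10.17 in HL60 and 10.18 in K562, with a difference of -0.01 ± 0.11. GPX1 and CA2 were higher in HL60, by 2.27 ± 0.13 and 1.53 ± 0.12. The iron genes HEPH, a copper oxidase, SLC40A1, the iron exporter ferroportin, and ACO1, which senses iron, were lower in HL60, with differences of -3.84 ± 0.13, -2.29 ± 0.14 and -1.57 ± 0.11, 3 of 10 measured in that list.

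Of 18 megakaryocyte and platelet genes 2 were lower in HL60, 1 was higher and 15 did not pass. By value 15 lay below 0 and 3 above, with a median difference of -0.24 against -0.109 over all genes. TUBB1 and RAB27B were lower in HL60, with differences of -1.85 ± 0.10 and -1.83 ± 0.17, and PLEK, the pleckstrin of platelets and leukocytes, was higher, with 7.73, 8.85 and 9.10 in HL60 and 3.64, 4.13 and 4.79 in K562. The chains of the fibrinogen receptor, ITGA2B and ITGB3, averaged 5.06 in HL60 and 5.64 in K562 for ITGA2B and 4.50 in HL60 and 4.90 in K562 for ITGB3, and PF4 averaged 3.77 in HL60 and 3.86 in K562, all near or below the array medians.

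Cytokine receptors and tyrosine kinase adaptors were largely one-sided. Of 18 receptors 5 were higher in HL60 and 0 lower: FLT3, CSF3R (the G-CSF receptor), IL6R, IGF1R and TGFBR2, with differences of 2.69 ± 0.16, 2.41 ± 0.15, 2.50 ± 0.11, 2.42 ± 0.14 and 2.40 ± 0.12. EPOR, the erythropoietin receptor, averaged 4.68 in HL60 and 5.17 in K562 and did not pass. Of 13 adaptors and phosphatases 7 were higher in HL60 and 0 lower. PTPN6, the phosphatase SHP-1, read 8.32, 8.52 and 8.67 in HL60 and 5.02, 5.46 and 5.63 in K562 (3.10 ± 0.12). VAV3 and PTPN22 differed by 3.01 ± 0.15 and 2.93 ± 0.19, LAT2 by 2.50 ± 0.12 and LCP2 by 2.06 ± 0.15, whereas PTPRC, the CD45 phosphatase, averaged 7.02 in HL60 and 6.63 in K562 and did not pass.

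Signalling genes around ABL, RAS and JAK-STAT divided, with 4 higher and 4 lower of 29. STAT5A, a transcription factor activated by cytokine receptors and by BCR-ABL1, read 4.81, 5.17 and 5.44 in HL60 and 8.23, 8.70 and 8.89 in K562, a difference of -3.53 ± 0.10. PIM1, a kinase that STAT5 is known to induce, read 5.65, 5.87 and 6.02 in HL60 and 8.45, 8.90 and 9.28 in K562, a difference of -3.02 ± 0.13, and SOCS2, a feedback inhibitor of the same pathway, differed by -2.28 ± 0.12. CRKL, an adaptor known as a BCR-ABL1 substrate, differed by -1.74 ± 0.11. ABL1 and BCR, the fusion partners, averaged 7.15 in HL60 and 8.46 in K562 for ABL1 and 7.0 in HL60 and 7.41 in K562 for BCR and did not pass, and STAT5B and CISH differed by -1.27 ± 0.12 and -1.01 ± 0.11 without passing. Higher in HL60 were INPP5D, the SHIP1 phosphatase, with 8.43, 8.67 and 8.83 in HL60 and 5.45, 5.63 and 5.78 in K562, and DUSP6, SYK and SPRY2 with 2.49 ± 0.12, 2.15 ± 0.12 and 1.42 ± 0.12, the last a call lost without any 1 of 7 arrays.

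Antigen presentation showed a class I difference and no class II call. Of 13 measured class I and loading genes 5 were higher in HL60. B2M, the light chain of class I, read 10.19, 10.26 and 10.61 in HL60 and 7.98, 8.22 and 8.81 in K562, a difference of 2.02 ± 0.12. ERAP2, a peptide trimmer, the immunoproteasome subunits PSMB8 and PSMB9, and NLRC5, the class I transactivator, differed by 2.45 ± 0.16, 2.01 ± 0.12, 1.53 ± 0.12 and 1.86 ± 0.12. TAPBP, tapasin, averaged 7.96 in HL60 and 7.93 in K562. The class I heavy chains of the list were not on probe sets used here. Of the class II genes 0 of 9 were higher and 0 lower, and CIITA, their transactivator, averaged 5.56 in HL60 and 5.68 in K562. Among ligands and regulators seen by natural killer cells CD48 and CD47 were higher in HL60, by 2.08 ± 0.15 and 2.01 ± 0.12, 2 of 18 measured. MICB and ICAM1 averaged 6.17 in HL60 and 7.40 in K562 for MICB and 5.50 in HL60 and 6.56 in K562 for ICAM1 and did not pass.

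Interferon response genes did not move as a list, with 4 lower and 1 higher of 30 and a median difference of -0.01. Of the 4 lower in HL60, 3 were IFITM genes, membrane proteins that block virus entry and lie together on chromosome 11. IFITM1 read 4.56, 4.92 and 5.37 in HL60 and 8.94, 9.44 and 10.07 in K562 (-4.46 ± 0.14). IFITM2 and IFITM3, which resemble each other closely, differed by -1.94 ± 0.17 and -2.44 ± 0.14. BST2, tetherin, was the fourth, at -1.51 ± 0.11, and TRIM22 was the gene higher in HL60, at 1.48 ± 0.10. Classical induced genes MX1, IFIT1 and ISG15 averaged 4.22 in HL60 and 4.28 in K562 for MX1, 4.07 in HL60 and 3.89 in K562 for IFIT1 and 5.69 in HL60 and 6.03 in K562 for ISG15 and did not pass.

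Of 15 measured cancer-testis antigens 6 were lower and 0 higher. SSX1 read 2.16, 2.38 and 2.54 in HL60 and 7.50, 7.79 and 9.38 in K562, MAGEC2 2.97, 3.40 and 3.56 in HL60 and 7.37, 7.69 and 8.06 in K562, and PRAME 7.64, 7.77 and 8.00 in HL60 and 11.08, 11.13 and 11.57 in K562. PRAME was thus well above the array medians in both lines and lower in HL60, with a difference of -3.45 ± 0.11, whereas SSX1 and MAGEC2 were near background in HL60. MAGEB2 differed by -3.91 ± 0.21, and MAGEA4 and CTAG2 did not pass, at -0.37 and -0.19. Of 14 oncofetal and stem-cell genes 2 were lower in HL60 and 0 higher. LIN28B, which blocks maturation of let-7 microRNAs, read 1.89, 2.27 and 2.92 in HL60 and 5.79, 6.54 and 7.10 in K562 (-4.20 ± 0.18), and IGF2BP2, an RNA-binding protein of fetal tissue, differed by -2.16 ± 0.17, while IGF2BP1 and IGF2BP3 did not pass (-1.24 ± 0.11 and -1.34 ± 0.14).

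All 10 HOXB genes had a value below 0, from -3.11 to -0.07, and 2 passed as lower in HL60. HOXB9 read 4.57, 4.62 and 4.94 in HL60 and 7.46, 7.83 and 8.04 in K562, and HOXB2 read 4.33, 4.56 and 4.70 in HL60 and 6.29, 6.52 and 7.18 in K562, with no overlap in either. HOXB4, a factor of blood stem cells, differed by -1.47 ± 0.17 and did not pass (adjusted p = 0.117), but passed with the replicate number as a block. Of the HOXA genes only HOXA2 was on a probe set used here, at 3.90 in HL60 and 4.02 in K562.

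Of 33 cell cycle genes 1 was lower and 0 higher, and the median was -0.04. The gene lower was CCNB1, cyclin B1, at -1.63 ± 0.12. MKI67, the Ki-67 antigen, averaged 8.94 in HL60 and 7.97 in K562, and MCM4, of the replication helicase, 8.86 in HL60 and 8.89 in K562. No gene of 17 in the p53 pathway list passed, where 0 calls stand against 5 values above 0 and 12 below. Of 16 death regulators 1 was higher and 1 lower. BCL2 was higher in HL60, with 7.25, 7.59 and 7.75 in HL60 and 5.0, 5.30 and 5.37 in K562, and BCL2L1, the related survival gene for BCL-XL, was lower, with 6.14, 6.92 and 7.10 in HL60 and 8.20, 8.56 and 9.22 in K562. MCL1, another survival gene of this family, differed by -0.50 and did not pass. Without K562 replicate 1 at 36 h, 3 death regulators were called higher in HL60 in place of 1. Of 15 housekeeping genes only B2M passed, and GAPDH and EEF1A1 differed by -0.17 and 0.02.

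Adhesion, calcium-binding and lipid genes also differed. ITGA4, the alpha chain of VLA-4, read 8.55, 8.89 and 9.32 in HL60 and 3.74, 3.87 and 4.15 in K562 (4.99 ± 0.12). Of 18 integrin and adhesion genes 4 were higher in HL60 and 2 lower, and without K562 replicate 1 at 36 h 6 were higher. ITGA6 was higher in HL60 by 3.05 ± 0.17, and EPCAM, an epithelial adhesion protein, was lower, with 3.07, 3.47 and 3.78 in HL60 and 7.39, 7.71 and 7.91 in K562. ITGB1, the beta chain that pairs with both of these integrin chains, averaged 7.39 in HL60 and 7.58 in K562 and did not pass. ANXA2, an annexin, was lower in HL60, with a difference of -3.44 ± 0.11, whereas its partner S100A10 was higher by 1.5 ± 0.14 (a call lost without any 1 of 7 arrays) and ANXA6 by 2.47 ± 0.11. ALOX5, its activating protein ALOX5AP and the phospholipase PLA2G4A, which start leukotriene synthesis, were higher in HL60, by 2.86 ± 0.18, 3.69 ± 0.14 and 2.30 ± 0.10, 3 of 11 measured in that list. ALDH1A2, which makes retinoic acid, and AKR1C1, a steroid and drug reductase, were lower in HL60, with differences of -4.22 ± 0.13 and -3.82 ± 0.12, in a list with 6 of 23 lower and 0 higher. Without 1 array at a time that count of lower genes was 4 to 6.

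The far ends of the table also held genes that no list contained. PLAC8, a cysteine-rich protein of leukocytes, read 9.93, 10.19 and 10.38 in HL60 and 2.89, 3.39 and 4.30 in K562, the largest difference after MPO (6.62 ± 0.17). CHI3L1, a chitinase-like secreted protein, read 10.03, 10.35 and 10.92 in HL60 and 4.31, 4.60 and 4.77 in K562. LYST, the regulator of lysosome traffic, read 9.24, 9.40 and 9.48 in HL60 and 3.65, 3.84 and 4.46 in K562. ATP8B4, APP and CXCR4, a lipid flippase, the amyloid precursor and a chemokine receptor, differed by 5.78 ± 0.10, 5.25 ± 0.16 and 4.91 ± 0.11. On the other side SCG3, a granin of secretory vesicles, read 1.88, 2.10 and 2.15 in HL60 and 7.17, 7.52 and 8.34 in K562. NMU, the peptide neuromedin U, read 2.59, 2.81 and 2.92 in HL60 and 7.96, 8.29 and 8.56 in K562. CALB1, a calcium buffer of neurons and kidney, RELN, the matrix protein reelin, GALNT5, a glycosyltransferase, and CPED1 differed by -5.01 ± 0.12, -4.94 ± 0.12, -5.54 ± 0.20 and -5.59 ± 0.17. TARP, from the T cell receptor gamma locus, differed by 5.23 ± 0.19, and its annotation overlaps other segments of that locus, so the transcript cannot be told from it.

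Counts of microRNA and small nucleolar RNA genes are to be read against the shares over all genes, 2.93% higher and 2.38% lower. Of 173 microRNA genes 2 were higher in HL60 and 0 lower. MIR142, a microRNA gene of blood cells, read 5.62, 6.16 and 6.62 in HL60 and 3.45, 3.79 and 5.25 in K562 (2.05 ± 0.27, adjusted p = 0.0124), and MIR15A, which is known to repress BCL2, read 5.29, 6.01 and 6.54 in HL60 and 3.38, 3.57 and 4.68 in K562 (2.27 ± 0.19, adjusted p = 7.93e-05). The HL60 and K562 arrays did not overlap in either. Both genes lie within longer non-coding genes in GRCh38.p14, and the probe sets cannot tell precursor from mature RNA or 1 arm from the other. MIR223, a microRNA of granulocytes, differed by 1.75 ± 0.30 and did not pass (adjusted p = 0.189). Without K562 replicate 1 at 36 h, where it read 6.68 against a K562 median of 4.35, its difference was 2.06 and passed. The mature RefSeq sequences of both called genes follow with the seed, bases 2 to 8, in capitals.
hsa-miR-142-5p: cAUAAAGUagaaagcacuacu
hsa-miR-142-3p: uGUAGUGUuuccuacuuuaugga
hsa-miR-15a-5p: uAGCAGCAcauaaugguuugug
hsa-miR-15a-3p: cAGGCCAUauugugcugccuca
The 4 seeds differ from each other, so none of the arms share a seed.

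Of 175 small nucleolar RNA genes 7 passed, and these were higher in HL60 and were copies of SNORD116, a repeated gene of the imprinted region on chromosome 15. Of 20 SNORD116 copies measured, 7 passed, and all values lay above 0, from 0.12 to 6.27. SNORD116-21 read 7.79, 8.08 and 8.31 in HL60 and 1.12, 1.88 and 2.42 in K562, and SNORD116-14 read 8.41, 8.67 and 8.81 in HL60 and 2.43, 2.75 and 3.04 in K562. The copies are near-identical, so probes may read several of them and the copies are not independent. SNORD115, the neighbouring repeated gene, had 0 of 20 copies higher and 0 lower, from -0.2 to 0.88. Of 59 histone genes 9 were lower in HL60, 1 was higher and the others did not pass. The lower ones were led by H2BC12 at -4.39 ± 0.16 and H3C10 at -2.51 ± 0.13, and the higher one was H3C11, with 9.68, 10.19 and 10.33 in HL60 and 4.18, 4.35 and 4.52 in K562 (5.74 ± 0.12). Histone genes are also similar in sequence, and these families were chosen after their values were seen.

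Differences of neighbouring genes ran together in places. Over genes with a mean above 6 in at least 1 line (8109 genes on the autosomes and X), the median difference was -0.108 and 42.7% of values lay above 0. On chromosome 18 the median was 0.632 over 115 genes, with 77.4% above 0, and on chromosome 13 it was 0.584 over 130 genes, with 78.5% above 0. The lowest medians were those of chromosome 5 (-0.294), chromosome 6 (-0.289) and chromosome 1 (-0.268). With all genes, expressed or not, chromosomes 13 and 18 still had the highest medians, 0.117 and 0.076. Chromosome 13 had 19 genes called higher and 3 lower of 317, and chromosome 18 21 higher and 9 lower of 264. Genes of a chromosome are not independent, and no test was made.

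A running median over 21 neighbouring genes of this set, chosen after the data were seen, was lowest on chromosome 22. Between DGCR6L and PRAME all 21 genes were lower in HL60 by value and the median was -1.3029. The stretch holds CRKL (-1.74), LZTR1 (-1.41), HIC2 (-1.93), YDJC (-2.07), PPIL2 (-1.75), TOP3B (-1.42), ZNF280B (-2.08), ZNF280A (-3.37) and PRAME (-3.45), all of which passed. On chromosome 5 the window from SSBP2 to ERAP1 had a median of -1.0896 with 17 of 21 below 0, among them MEF2C, a factor of muscle and blood cells, at -3.90, RFESD at -4.01 and RHOBTB3 at -3.43, but MCTP1 and GLRX in the same window were higher in HL60, at 2.78 and 2.30. The highest window lay on chromosome 18 from LMAN1 to ZNF516, with a median of 1.2717 and 20 of 21 above 0, and held BCL2 (2.28), VPS4B (2.07), SERPINB10 (6.12), SERPINB8 (3.92) and TMX3 (1.82). The lower and upper quartiles of all 7649 window medians were -0.27 and 0.095.

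**Figure D4:**
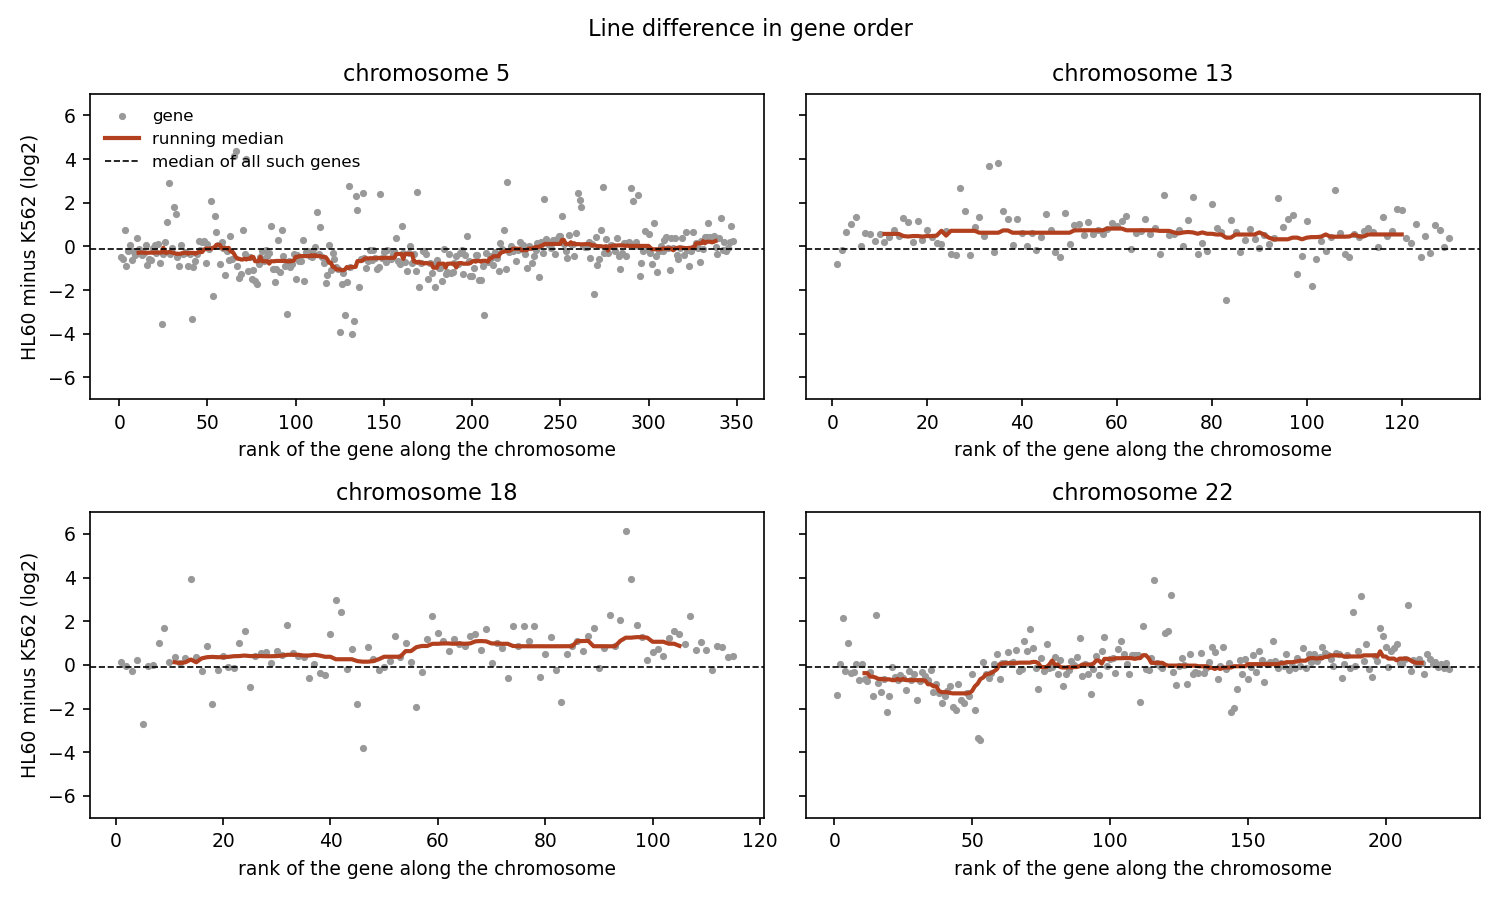
Difference HL60 minus K562 (log2, vertical axis) of genes with a mean above 6 in at least 1 line, in gene order along chromosomes 5, 13, 18 and 22 (horizontal axis, rank of the gene on the chromosome, 1 panel each). Dots are genes, the line is the running median of 21 neighbours and the dashed line the median of all such genes, -0.108. Chromosomes 13 and 18 run above the dashed line for most of their length, and chromosome 22 dips to -1.3029 over a short stretch.

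The 9p21 neighbourhood on chromosome 9 was uneven. MTAP, of methionine salvage, read 6.53, 6.71 and 6.87 in HL60 and 3.96, 4.49 and 4.92 in K562 (2.24 ± 0.14), FOCAD, of focal adhesions, read 6.56, 6.82 and 6.89 in HL60 and 3.98, 4.21 and 4.55 in K562 (2.52 ± 0.11), and HACD4 differed by 2.39 ± 0.16. KLHL9, which lies between them, differed by 1.44 ± 0.15 and did not pass (adjusted p = 0.101). CDKN2A, the gene of p16, averaged 5.76 in HL60 and 5.27 in K562, and CDKN2B, the gene of p15, 5.06 in HL60 and 5.38 in K562, and neither passed. Both were near the array medians in both lines. In K562 the means of MTAP, FOCAD and HACD4 were all below 5.

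The test of a difference that changes with time was passed by 12 of 19460 probe sets (0.0617%, limma's F test on the line by time terms), each for a different gene. In all 12 the difference grew in the direction of HL60 at 36 h. Without K562 replicate 1 at 36 h the count was 21, and without its replicate 2 it was 93. FBP1, a gluconeogenic enzyme of monocytes, averaged 5.12, 8.03 and 10.07 at 0, 8 and 36 h in HL60 and 4.51, 4.85 and 4.84 in K562. CD14, the co-receptor for lipopolysaccharide, averaged 5.98, 8.57 and 10.08 in HL60 and 5.04, 5.39 and 5.33 in K562. MMP8 averaged 3.39, 5.11 and 8.39 in HL60 and 2.08, 2.27 and 2.36 in K562. At 0 h these 3 genes differed by 0.61, 0.94 and 1.31 in the same order, and at 36 h the difference had changed by 4.63 ± 0.29, 3.81 ± 0.27 and 4.72 ± 0.40.

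CYP24A1, the enzyme that breaks down calcitriol and a classical target of its receptor, averaged 3.60, 7.69 and 10.04 in HL60 and 3.65, 3.67 and 6.09 in K562. In K562 at 36 h replicate 1 read 7.15 and replicate 2 5.03, and the difference changed by 4.0 ± 0.60 at 36 h, or by 5.06 without replicate 1 of K562. The acute-phase genes HP (haptoglobin), ORM1 and ORM2 changed by 2.01 ± 0.30, 3.12 ± 0.37 and 3.29 ± 0.34 at 36 h, and ORM1 and ORM2 are near-identical copies. TREM1, QPCT, CLMN, THEMIS2 and CD274, the gene of PD-L1, were the others, with 3.26 ± 0.28, 2.53 ± 0.26, 2.49 ± 0.30, 1.72 ± 0.25 and 1.87 ± 0.26. VDR, the calcitriol receptor, averaged 6.02 in HL60 and 4.87 in K562 over the 3 times and did not pass the level test. The genes with the largest level difference in each direction stayed level by comparison. MPO averaged 11.70, 11.69 and 11.46 in HL60 and 5.03, 5.0 and 4.86 in K562, and HBE1 averaged 4.54, 4.57 and 4.46 in HL60 and 11.58, 11.57 and 11.44 in K562. Other genes of the line difference moved more by value without passing the time test. From 0 h to 36 h the difference went from 5.86 to 4.59 for BPI, 2.07 to 3.53 for ALOX5 and -2.83 to -2.17 for ALAS2.

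**Figure D5:**
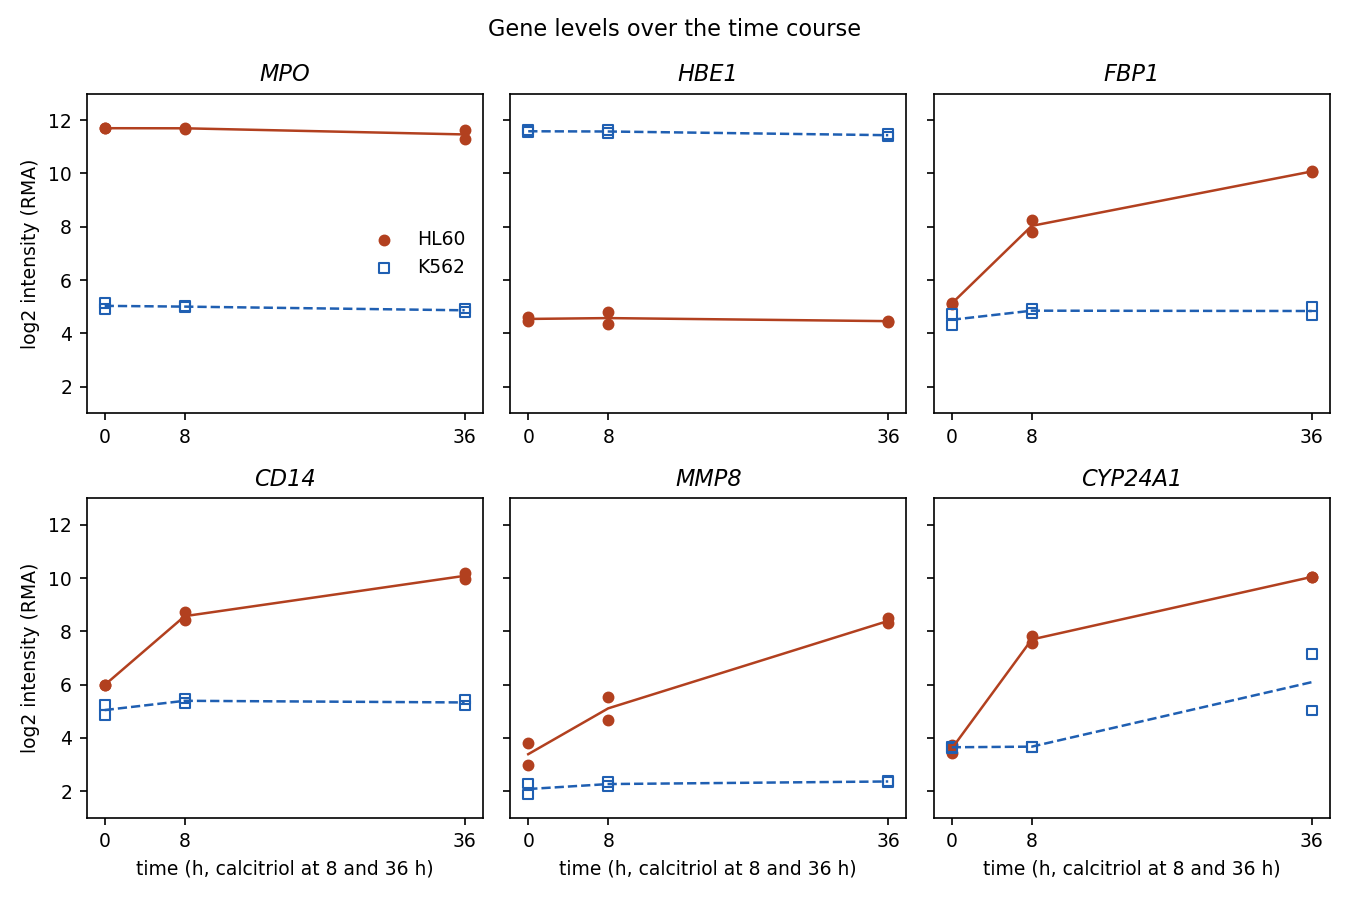
Log2 intensity (vertical axis) at 0, 8 and 36 h (horizontal axis) of 6 genes, HL60 (filled circles, solid line) and K562 (open squares, dashed line), 2 arrays a point in time and lines through their means. MPO and HBE1 keep their distance, whereas FBP1, CD14, MMP8 and CYP24A1 lie further apart at 36 h than at 0 h.

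Set beside the 42 arrays of the other 7 lines (4 lymphoblastoid, 2 fibroblast and 1 hepatoma line), the extreme genes were of both kinds. Of the 25 genes with the largest differences higher in HL60, 18 had all 6 HL60 arrays above every array of the other lines, and of the 25 lower in HL60, 17 had all 6 K562 arrays above them. Over all genes these shares were 4.53% and 4.85%. APP averaged 9.93 in HL60 and 10.66 in AG09309 fibroblasts, ITGA4 averaged 8.89 in HL60 and 8.94 in the lymphoblastoid line GM10854, and LYZ averaged 12.23 in HL60 and 11.66 in the hepatoma line HepG2. RELN averaged 9.08 in K562 and 8.77 in HepG2, and EPCAM averaged 7.66 in K562 and 8.26 in HepG2. MPO and HBE1 had a highest line mean of 5.02 and 4.77 outside these 2 lines. These genes were chosen for their difference, so the counts are a description. The titles of HepG2 and some other lines here carry a date that those of HL60 and K562 lack. Whether these arrays were run apart is not stated.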

How the data were processed

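RNA of HL60 and K562 was measured on Affymetrix Gene 1.0 ST arrays, 2 a line and time. The authors' deposited values are log2 intensities summarised by RMA in Affymetrix Expression Console 1.0, per the submitters' processing notes. Probe sets were named through the platform annotation, and those with no symbol or several were left out. From these values limma 3.58.1 (R 4.3.3) fitted line and time on 12 arrays (8 residual and 8.5 prior degrees of freedom). A call needs a Benjamini-Hochberg adjusted p below 0.05 over 19460 probe sets, against 0 (any size) or beyond 2-fold (treat). A moderated F test covered line by time, and the 0 h arrays were also fitted alone. The fit was tested on simulated data. Sequences are RefSeq's (GRCh38.p14).

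Members and lists were chosen with earlier results of these data known. Genes were drawn from MPO and GATA1, the 25 largest differences a direction without overlap, and in each list the 6 largest and 2 smallest. They were also drawn from the 6 largest changes at 36 h and from small clusters in gene order. Not all genes of these groups are named, and the choice among them was made after their values were seen. Other genes were named for their role after their values were seen. Same-numbered arrays deviated together in some pairs of groups and in opposite directions in others (r -0.613 to 0.585 over 15 pairs of groups, 7 above 0.1). The numbers were therefore not taken as pairs. The alternatives were other normalizations, filters, probe sets, arrays, covariates, moderation and thresholds.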

Additional observations from a re-analysis of the deposited data

Results flagged for a closer look

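In 31 of 492 sets of 6 arrays, those of 1 named gene in 1 line, 1 array stood apart from the other 5 by a gap beyond the critical value of Dixon for 6 values. Chance alone gives about 1 in 20 such sets. Each value is a log2 intensity, set beside the median of its line, and no cause was tested. The array of HL60 replicate 1 at 0 h read 4.80 against 5.62 for HACD4, 7.21 against 7.58 for S100A10 and 5.88 against 6.37 for SPRY2. The array of HL60 replicate 2 at 0 h read 2.81 against 3.34 for CPED1, 9.98 against 9.57 for SERPINB10 and 5.40 against 4.76 for SLC40A1. The array of HL60 replicate 1 at 36 h read 7.64 against 6.71 for FCER1G and 5.09 against 5.52 for ZNF280B. The array of HL60 replicate 2 at 36 h read 11.30 against 11.68 for MPO and 6.30 against 6.62 for YDJC. The array of K562 replicate 1 at 0 h read 5.0 against 5.30 for BCL2, 4.90 against 5.21 for EPOR, 4.40 against 4.73 for EPX and 5.10 against 5.44 for LCN2. It also read 9.38 against 7.79 for SSX1. The array of K562 replicate 2 at 0 h read 5.67 against 5.89 for ALOX5. The array of K562 replicate 1 at 8 h read 8.08 against 7.59 for GATA1 and 5.02 against 5.57 for OR51B2. The array of K562 replicate 2 at 8 h read 4.87 against 4.61 for MMP9. The array of K562 replicate 1 at 36 h read 5.65 against 4.65 for AIF1, 7.73 against 7.16 for ALAS1, 8.04 against 7.42 for BLVRA and 7.17 against 6.71 for CEBPB. It also read 6.84 against 6.39 for COL1A2, 7.04 against 6.52 for ICAM1, 4.46 against 3.84 for LYST and 4.68 against 3.57 for MIR15A. It also read 6.68 against 4.35 for MIR223, 5.61 against 5.06 for PRG2 and 5.26 against 4.81 for SPRY2. The array of K562 replicate 2 at 36 h read 4.06 against 4.75 for IRF8.

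The line difference changed with time for 12 genes by the F test of line by time terms. The HL60 minus K562 difference at 36 h, less that at 0 h, was 4.72 for MMP8, 4.63 for FBP1, 4.0 for CYP24A1, 3.81 for CD14, 3.29 for ORM2 and 3.26 for TREM1. It was 3.12 for ORM1, 2.53 for QPCT, 2.49 for CLMN, 2.01 for HP, 1.87 for CD274 and 1.72 for THEMIS2. In K562 at 36 h the 2 arrays lay further apart than those of any other group here, and leaving out replicate 1 kept 11 of the 12 calls.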

How the results depend on the processing

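None of the named genes with a call reversed sign under any alternative run, but these runs share arrays with the main fit. Of the 169 named genes beyond 2-fold, the call was lost by 7 over all probe sets (MIR142 among them), by 83 at a log2 threshold of 2, and by 35, 11 and 38 with the 0, 8 or 36 h arrays alone. It was lost by RAC2 with median centring, by FBP1 without the time term, by FBP1 and MMP8 with trend and robust moderation, and by 7 genes without some single array. ABL1, CYP24A1, HOXB4, KLHL9, MIR223, NFE2, OR51B2 and TREM1 gained a call without some single array. Of the 12 genes that changed with time, CD274, CYP24A1, HP, ORM1 and THEMIS2 lost that call over all probe sets, and HP also with quantile normalization, with all 54 arrays and without K562 replicate 1 at 36 h.

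At a log2 threshold of 2 there were 189 probe sets higher in HL60 and 123 lower, and 135 higher and 99 lower at 0 h alone. Beyond 2-fold the 0 h arrays alone gave 372 higher, and the 36 h arrays alone 303 higher and 245 lower. The 8 h arrays alone gave 685 higher and 348 lower. At any size there were 5695 higher over all probe sets, 1640 higher and 1952 lower at 0 h alone, and 1187 higher and 1879 lower at 36 h alone. Without 1 array at a time the counts were 532 to 647 higher and 422 to 485 lower beyond 2-fold, 2881 to 3675 higher and 3881 to 5540 lower at any size, 272 to 385 higher and 234 to 368 lower at 0 h alone, and 8 to 93 changing with time. The last was 21 without K562 replicate 1 at 36 h, 93 without its replicate 2 and 43 with all 54 arrays. Where more probe sets or a stricter threshold do not account for a change by construction, the cause was not tested.

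With the replicate number as a block, 577 probe sets were higher and 462 lower beyond 2-fold, 3160 higher and 4407 lower at any size, 319 higher and 257 lower at 0 h alone, and 13 changed with time. HOXB4 passed under the block, at -1.47, and no named gene lost its call. Quantile normalization moved the median difference to -0.1291. Signal over background is not given by these values, so a level near the array medians gives only a weak bound on a difference.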
